A study of Mus musculus with 12 samples.

Results

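The genes described here make, bind and break down hyaluronan and the versican-rich matrix that it organises: the hyaluronan synthases Has1, Has2 and Has3, the precursor enzyme Ugdh, the matrix genes Vcan and Hapln1, the receptors Cd44 and Hmmr, and the hyaluronidases Hyal1 and Hyal2. Has2 was chosen by its large rise in signal at day 4 on these same arrays, the other 9 genes of the list stand for its pathway, and each gene is represented by the probe set that carries its symbol alone and has the highest mean over all arrays. Such a probe set was found for 9 of the 10 genes, out of 19938 genes measured in this way. Both probe sets listed for Hyal1 also carry the symbol of its neighbour Naa80, so no level is given for Hyal1.

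The study measured total RNA of mouse cells on 12 Affymetrix gene arrays, 3 in each of 4 groups. Its title concerns the lysophosphatidic acid receptor gene Lpar4 in cardiac differentiation. The sorted CPC group was a day 4 population enriched for cardiac progenitor cells by flow cytometry for FLK1 (the product of Kdr) and PDGFRα, the cardiac group was taken at day 4 of an optimized cardiac differentiation, the spontaneous group consisted of cells left to differentiate spontaneously until day 4, and the iPSC group of undifferentiated induced pluripotent stem cells at day 0. The labels call the iPSCs piPS and the cardiac samples EB + ck without spelling these out, and they derive all day 4 cells from iPSCs. The mouse strain and any use of feeder cells are not given in them. Nothing in the labels says that replicates came from separate cultures, so each p-value reflects the spread among these arrays alone, and that spread may be technical.

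Hyaluronan is a long, unsulphated polysaccharide that synthases in the plasma membrane build from UDP-glucuronic acid and UDP-N-acetylglucosamine and extrude into the pericellular space. There it holds water and binds versican, a large chondroitin sulphate proteoglycan, in complexes that link protein stabilises. In the embryo this matrix fills the cardiac jelly, and mice without Has2 fail to form endocardial cushions.

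Values are log2 signals, on which a difference of 1 is a doubling, and SDs are over the 3 arrays of a group. The arrays do not report a background level, so signals near or below the array medians (6.09 to 6.26) are not shown to exceed background. Of 8 pluripotency markers 4 fell in the sorted group, 4 in cardiac cultures and 5 in spontaneous cells, against iPSCs. Their mean signal was 8.21, 10.01 and 9.18 in sorted CPC replicates 1, 2 and 3 and 9.77, 8.99 and 9.58 in cardiac replicates. The spontaneous replicates had 9.19, 8.81 and 9.30, against 10.78 to 11.02 in iPSCs. Kdr did not follow all labels: it measured 10.23, 6.25 and 6.03 in the arrays labelled sorted CPC 1, 2 and 3 and 5.42, 10.81 and 9.01 in cardiac replicates 1, 2 and 3, against at most 5.78 in iPSCs. Pdgfra, the other gene of the sort, measured 11.13, 8.47 and 8.29 in the same sorted arrays, against 8.75 to 9.14 in iPSCs. Sorted CPC replicates 2 and 3 and cardiac replicate 1 were thus close to day 0 in Kdr, and values without these 3 arrays are given where a call changed or a value named here moved by much. In unsorted cultures and in the sorted population alike, fewer cells of a type and less RNA per cell cannot be told apart.

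Has2, the main hyaluronan synthase of the embryo, was high at day 4 and low in undifferentiated cells. It measured 9.90, 8.96 and 8.08 in the arrays labelled sorted CPC 1, 2 and 3. The cardiac arrays had 8.21, 10.14 and 9.37. The spontaneous arrays had 9.66, 10.51 and 10.44, against 5.92, 5.81 and 6.72 in iPSCs. The day 4 arrays did not overlap with the iPSC arrays, and the lowest day 4 signals belonged to sorted replicate 3 and cardiac replicate 1. The group means were 8.98 ± 0.91 in sorted libraries, 9.24 ± 0.98 in cardiac cultures and 10.20 ± 0.47 in spontaneous cells, against 6.15 ± 0.50 in iPSCs (SD, n = 3 each). These means lie 2.83, 3.09 and 4.05 above day 0, or 7.11-fold, 8.51-fold and 16.6-fold, which put Has2 at places 11, 18 and 6 among all genes ordered by their rise. The gene was chosen for this rise, so these differences are a description and carry no test. Without the 3 arrays low in Kdr the sorted difference, then of 1 array, was 3.75 and the cardiac difference 3.61.

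Within day 4 the order of the Has2 means was spontaneous, cardiac and sorted, and no step of it passed the test. Here and below, a gene was called where limma's moderated test gave an adjusted p under 0.05 over all 19938 genes with an absolute log2 difference of at least 1. Cardiac cultures differed from spontaneous cells by -0.96 (95% interval -2.02 to 0.10, adjusted p = 0.999), and sorted libraries from cardiac cultures by -0.26 (-1.32 to 0.80, adjusted p = 0.794). Sorted libraries differed from spontaneous cells by -1.22 (-2.28 to -0.16, adjusted p = 0.388). The intervals are per gene and not adjusted for the number of genes. The difference between sorted and cardiac libraries changed sign without the 3 arrays low in Kdr (0.14), and also without sorted replicate 3 or cardiac replicate 2 alone (0.19 each). Without sorted replicate 3 sorted libraries differed from spontaneous cells by -0.77, and the 1 sorted array left without the 3 arrays differed from them by -0.30 (adjusted p = 0.726). The cardiac difference from spontaneous cells was -0.44 without cardiac replicate 1.

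The other synthase genes were dim, and neither was called in any comparison. Has1 ranged from 6.08 to 6.49 in sorted libraries, 5.85 to 6.19 in cardiac cultures and at most 6.12 in spontaneous cells, against 6.20 to 6.27 in iPSCs. Has3 ranged from 5.16 to 5.89 in sorted libraries, 4.82 to 5.45 in cardiac cultures and 5.47 to 5.67 in spontaneous cells, against 5.05 to 5.19 in iPSCs, and stayed below the array median on all 12 arrays. Has3 was 0.43 higher in spontaneous cells than in iPSCs (interval 0.03 to 0.83, adjusted p = 0.169), with no overlap between the arrays. It differed from iPSCs by 0.42 in sorted libraries (adjusted p = 0.233) and by 0.07 in cardiac cultures (adjusted p = 0.821). Without the 3 arrays low in Kdr the adjusted p was 0.0122 in spontaneous cells at the same difference and 0.00594 in the 1 sorted array left (0.75), both under the minimum difference. Has1 differed from iPSCs by 0.10, -0.22 and -0.18 in sorted, cardiac and spontaneous samples (adjusted p = 0.742, 0.34 and 0.445). Its order, sorted, iPSC, spontaneous and cardiac, had no neighbours that differed beyond the test.

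**Figure D1:**
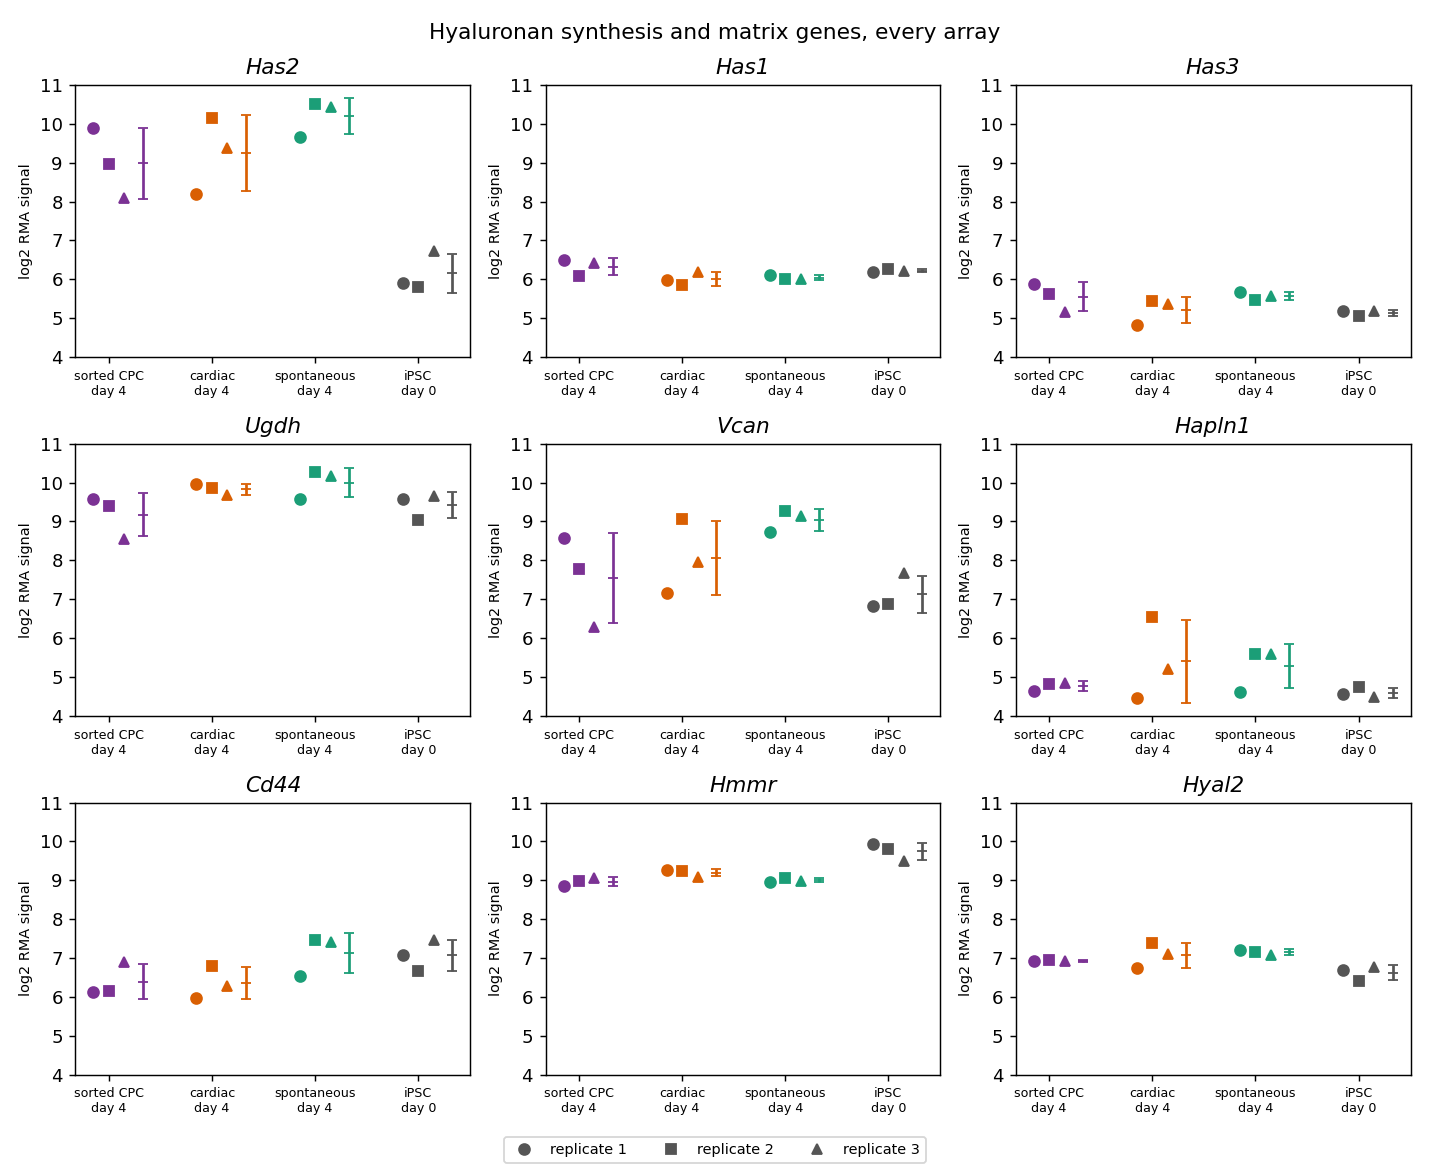
Log2 RMA signal of the 9 measured genes on every array; columns are the sorted CPC, cardiac and spontaneous groups at day 4 and iPSCs at day 0, symbols mark replicates 1 to 3, and bars give mean ± SD of 3 arrays. Has2 lies between 8.08 and 10.51 on the day 4 arrays and between 5.81 and 6.72 in iPSCs, while Has1 and Has3 stay between 4.82 and 6.49 throughout.

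Ugdh, which oxidises UDP-glucose to the UDP-glucuronic acid used by all synthases and by other glycosaminoglycan pathways, was bright in every group and did not pass the test. It measured 9.58, 9.39 and 8.55 in sorted libraries, 9.96, 9.85 and 9.67 in cardiac cultures and 9.57, 10.26 and 10.17 in spontaneous cells, against 9.58, 9.04 and 9.66 in iPSCs. Sorted replicate 3 was the lowest array of all, the cardiac arrays lay just above those of iPSCs, and the spontaneous and iPSC arrays overlapped. The difference from iPSCs was -0.25 in sorted libraries (adjusted p = 0.674), 0.40 in cardiac cultures (adjusted p = 0.372) and 0.58 in spontaneous cells (interval 0.01 to 1.14, adjusted p = 0.196). Within day 4, sorted libraries were 0.65 below cardiac cultures without overlap (adjusted p = 0.292) and 0.83 below spontaneous cells (adjusted p = 0.324). These differences were -0.34 and -0.51 without sorted replicate 3 alone, and -0.18 and -0.42 without the 3 arrays low in Kdr.

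Vcan, which encodes versican, was the only member with a called difference among those tested. It lies next to Hapln1, the gene of hyaluronan and proteoglycan link protein, among the protein-coding genes of the mouse genome. Because these neighbours encode proteins of the same complex, their promoters are shown, from 250 bases before to 50 after the start, as RefSeq and build GRCm38.p6 give them; capitals mark the GC box GGGCGG or its reverse complement.
Vcan, chr13:89742463-89742762, minus strand: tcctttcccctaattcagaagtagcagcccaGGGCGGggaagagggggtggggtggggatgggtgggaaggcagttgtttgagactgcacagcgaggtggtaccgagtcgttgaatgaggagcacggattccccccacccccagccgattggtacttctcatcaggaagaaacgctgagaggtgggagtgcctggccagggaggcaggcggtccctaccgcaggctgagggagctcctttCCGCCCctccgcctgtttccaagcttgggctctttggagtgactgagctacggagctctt
Hapln1, chr13:89540386-89540685, plus strand: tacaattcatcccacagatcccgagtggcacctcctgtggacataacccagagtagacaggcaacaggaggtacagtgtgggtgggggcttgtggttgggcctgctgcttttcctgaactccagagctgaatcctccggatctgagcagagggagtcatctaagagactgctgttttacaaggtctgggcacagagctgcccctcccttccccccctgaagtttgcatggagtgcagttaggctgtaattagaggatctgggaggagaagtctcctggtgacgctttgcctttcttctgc

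The windows were searched on both strands for the GC box, the TATA box TATAAA, the TCF/LEF motif CTTTGAT and the T-box motif AGGTGTGA, which do not overlap each other in these windows. The Vcan window held 2 GC boxes and no match to the other motifs, and the Hapln1 window held no match to any of them. Of 32851 promoter windows of the same length, 35.7% held a GC box, 13.6% a TATA box, 3.73% the TCF/LEF motif and 1.28% the T-box motif. GC content was 61% in the Vcan window and 54.3% in the Hapln1 window, against a median of 52.7% over all windows. Windows were listed for 8 of the 10 genes, but not for Has2 or Has3, which were therefore not searched.

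Vcan measured 8.57, 7.77 and 6.29 in the arrays labelled sorted CPC 1, 2 and 3 and 7.16, 9.06 and 7.96 in cardiac replicates 1, 2 and 3. The spontaneous arrays had 8.74, 9.27 and 9.13, against 6.82, 6.88 and 7.67 in iPSCs. All spontaneous arrays lay above all iPSC arrays, whereas the sorted and cardiac arrays overlapped with them and sorted replicate 3 was the lowest of the 12. Vcan rose in spontaneous cells to 9.05 ± 0.28, against 7.13 ± 0.47 in iPSCs, a difference of 1.92 ± 0.52 (SE, interval 0.79 to 3.05, 3.79-fold, adjusted p = 0.0352). This call did not survive leaving out iPSC replicate 1, iPSC replicate 2 or any 1 spontaneous array (differences 1.77 to 2.08, adjusted p = 0.0624 to 0.127). It was also lost without cardiac replicate 3 (adjusted p = 0.0535), which enters through the shared spread. In cardiac cultures the mean was 8.06 ± 0.96, a difference of 0.94 from iPSCs (interval -0.19 to 2.07, adjusted p = 0.305), and in sorted libraries 7.54 ± 1.16, a difference of 0.42 (interval -0.71 to 1.55, adjusted p = 0.736). Single arrays moved both: the cardiac difference was 0.44 without replicate 2, and the sorted one -0.10 without replicate 1 and 1.05 without replicate 3. Without the 3 arrays low in Kdr these differences passed, at 1.39 in 2 cardiac arrays (adjusted p = 0.0123) and 1.45 in 1 sorted array (adjusted p = 0.0374). Those arrays stood apart by a gene whose signal ran with that of Vcan, so this is no separate test of Vcan.

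Among day 4 groups the order of Vcan was spontaneous, cardiac and sorted, as for Has2, and no difference passed. Sorted libraries lay below spontaneous cells without overlap (-1.50, interval -2.63 to -0.38, adjusted p = 0.346), cardiac cultures 0.98 below them (interval -2.11 to 0.14, adjusted p = 0.999), and sorted libraries 0.52 below cardiac cultures (adjusted p = 0.598). The sorted difference from spontaneous cells was -0.88 without sorted replicate 3 and -0.47 without the 3 arrays low in Kdr (adjusted p = 0.567), and the cardiac one was -0.53 without cardiac replicate 1. Sorted minus cardiac was 0.11 without sorted replicate 3 and 0.060 without the 3 arrays, so this step of the order rests on those arrays.

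Hapln1 was dim, below its array's median on 11 of 12 arrays. It measured 4.63, 4.81 and 4.86 in sorted libraries, 4.46, 6.56 and 5.20 in cardiac cultures and 4.62, 5.60 and 5.60 in spontaneous cells, against 4.56, 4.74 and 4.50 in iPSCs. Cardiac replicates 2 and 3 and spontaneous replicates 2 and 3 stood above every other array, and every pair of groups overlapped. The differences from iPSCs were 0.17 in sorted libraries (adjusted p = 0.877), 0.80 in cardiac cultures (adjusted p = 0.252) and 0.68 in spontaneous cells (adjusted p = 0.337). Without cardiac replicate 1 the cardiac difference was 1.28 and passed (adjusted p = 0.0395), and without cardiac replicate 2, the highest array, it was 0.23 (adjusted p = 0.786). It was also 1.28 without the 3 arrays low in Kdr, of which cardiac replicate 1 is the only cardiac array.

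Neither receptor gene was called in any comparison. Cd44, the principal cell surface receptor for hyaluronan, measured 6.12, 6.15 and 6.91 in sorted libraries and 5.97, 6.80 and 6.29 in cardiac cultures. The spontaneous arrays had 6.54, 7.46 and 7.42, against 7.07, 6.68 and 7.47 in iPSCs. Every day 4 group overlapped with iPSCs, and the highest arrays belonged to iPSCs and spontaneous cells. Cd44 differed from iPSCs by -0.68 in sorted libraries (interval -1.33 to -0.03, adjusted p = 0.241), by -0.72 in cardiac cultures (interval -1.37 to -0.07, adjusted p = 0.183) and by 0.06 in spontaneous cells (adjusted p = 0.929). Between day 4 groups it was 0.74 lower in sorted libraries and 0.78 lower in cardiac cultures than in spontaneous cells (adjusted p = 0.393 and 0.999).

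Hmmr encodes a hyaluronan-binding protein that also sits on the mitotic spindle. It measured 8.84, 8.99 and 9.06 in sorted libraries, 9.27, 9.24 and 9.09 in cardiac cultures and 8.97, 9.07 and 8.97 in spontaneous cells, against 9.93, 9.81 and 9.50 in iPSCs. All day 4 arrays lay below all iPSC arrays, and the SD was 0.06 to 0.22 in each group. The differences were -0.78 ± 0.13 in sorted libraries (SE, 1.72-fold lower, adjusted p = 0.00461), -0.55 ± 0.13 in cardiac cultures (1.46-fold lower, adjusted p = 0.0292) and -0.74 ± 0.13 in spontaneous cells (1.67-fold lower, adjusted p = 0.00463). The adjusted p was under 0.05 in each, but the differences are below the minimum of 1 and were not called. For the cardiac difference the adjusted p ranged from 0.00843 to 0.117 over the alternatives, with sign and size kept between -0.67 and -0.45. Of 16 other mitosis genes measured, 0 were called in any day 4 group (8, 3 and 5 at an unadjusted p under 0.05), and 14, 13 and 12 of them had a negative difference in sorted, cardiac and spontaneous samples. Their medians were -0.31, -0.08 and -0.18, against 0.03, -0.05 and -0.03 over all genes. Ccnb2, a mitotic cyclin gene, differed by -0.42, -0.52 and -0.62 in these groups (adjusted p = 0.0351, 0.0128 and 0.00381, under the minimum difference), and Top2a, the topoisomerase that untangles chromosomes and the gene with the highest mean signal of the list, by -0.17, -0.08 and -0.16 (adjusted p = 0.467, 0.688 and 0.436).

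Hyal2, a hyaluronidase anchored at the cell surface that cleaves long chains, was not called in any comparison. It measured 6.91, 6.96 and 6.91 in sorted libraries, 6.75, 7.39 and 7.10 in cardiac cultures and 7.21, 7.17 and 7.07 in spontaneous cells, against 6.69, 6.41 and 6.76 in iPSCs. Sorted and spontaneous arrays did not overlap with iPSCs, and cardiac replicate 1 did. The differences were 0.31 in sorted libraries (adjusted p = 0.317), 0.45 in cardiac cultures (adjusted p = 0.109) and 0.53 in spontaneous cells (interval 0.19 to 0.87, adjusted p = 0.0522). Without the 3 arrays low in Kdr the difference was 0.62 in cardiac cultures and unchanged in spontaneous cells, both under the minimum difference. Those arrays were picked after seeing the data, so this is no separate test of Hyal2.

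**Figure D2:**
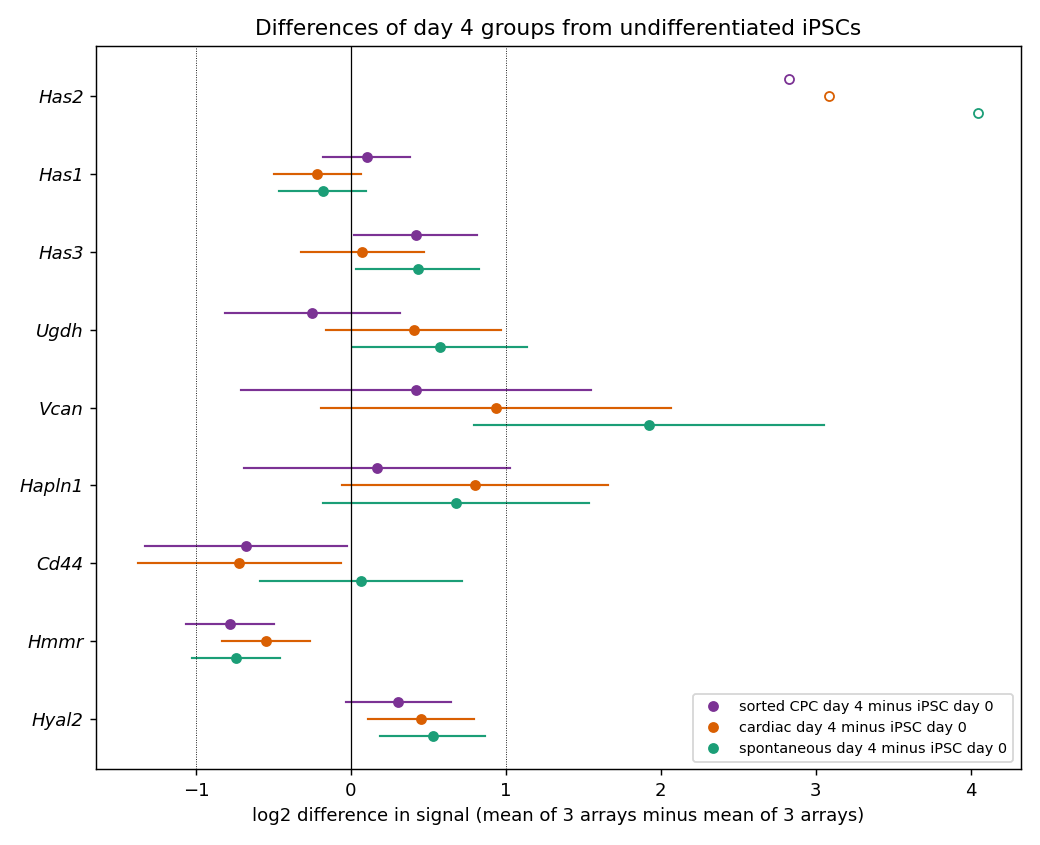
Log2 difference from iPSCs at day 0 for the sorted CPC, cardiac and spontaneous groups at day 4, with 95% intervals per gene (n = 3 arrays a group); dotted lines mark a difference of 1 in either direction. Has2 is drawn as open points without intervals because it was chosen for these differences of 2.83, 3.09 and 4.05; Vcan in spontaneous cells (1.92) is the one called difference, and the intervals of Hmmr lie below 0 in all 3 groups.

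Counted over the 8 members other than Has2, 0 were called in sorted libraries, 0 in cardiac cultures and 1 in spontaneous cells against iPSCs. Over all genes 2.11%, 2.2% and 3.57% were called in these comparisons, so 1 call among 8 genes is too small a count to set the members apart. The median difference of the 8 genes was 0.13, 0.24 and 0.48, against 0.03, -0.05 and -0.03 over all genes. At an unadjusted p under 0.05 there were 3, 3 and 5 of the 8 genes (37.5%, 37.5% and 62.5%), against 3855, 4458 and 4781 of the 19938 genes (19.3%, 22.4% and 24.0%). The arrays did not overlap with iPSCs for 2, 3 and 5 of the 8 genes, against 21.5%, 29% and 41% of all genes, which is 25%, 37.5% and 62.5% of the members. The members' shares were above those of all genes in each of these comparisons, but over 8 genes only. The 3 comparisons share the iPSC arrays and are not independent. Between day 4 groups 0 of 9 members were called by limma in any comparison. Over all genes 0% were called between cardiac and spontaneous samples, 0% between sorted and cardiac samples, and 0.00502%, or 1 gene, between sorted and spontaneous samples. The arrays of 2 of the 9 members did not overlap in each of these comparisons, against 8.99%, 13.1% and 19.6% of all genes in this order. At an unadjusted p under 0.05 there were 1, 2 and 5 of the 9 members, against 743, 3135 and 2310 of the 19938 genes.

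Has2 and Vcan had nearly the same order of arrays within day 4. Spontaneous replicates 2 and 3 and cardiac replicate 2 were the highest in both genes, and cardiac replicate 1 and sorted replicate 3 the lowest. Over the 9 day 4 arrays Pearson's r was 0.972 and Spearman's rho 0.983, and r was 0.96 without the 2 arrays farthest from the median of Has2, sorted replicate 3 and cardiac replicate 1. The correlation of deviations from the group means over 12 arrays was 0.963. Groups of 3 arrays are too small for a value within each. Among 19937 other genes ranked by r with Has2 over day 4 arrays, Vcan stood at place 20. Over all 12 arrays r was 0.828 and Vcan stood at place 971. The correlations describe arrays that share their culture group and their deviations over many genes, and they carry no p.

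Markers of nascent mesoderm, of which 7 of 8 were measured, also differed between arrays of 1 group and were lowest among day 4 arrays in cardiac replicate 1 and sorted replicate 3. Of the 7, 1 rose in sorted libraries, 1 in cardiac cultures and 3 in spontaneous cells against iPSCs. Their mean signal was 10.53, 8.40 and 7.24 in sorted replicates 1, 2 and 3, 7.04, 10.06 and 9.10 in cardiac replicates and 9.69, 9.52 and 9.34 in spontaneous replicates, against 6.56 to 6.59 in iPSCs. The summed linear signal of the list ranged from 1309 to 13490 in sorted libraries, 1482 to 9546 in cardiac cultures and 6929 to 7457 in spontaneous cells, against 914 to 1016 in iPSCs. Kdr, one of these markers, had r = 0.947 with Has2 over the 9 day 4 arrays, and 0.877 without the 2 arrays farthest from the Has2 median. Mixl1 and Pdgfra, also of this list, had lower values over the 9 arrays, r = 0.883 and 0.677. Has2 in the arrays low in Kdr was 8.21, 8.96 and 8.08 in cardiac replicate 1 and sorted replicates 2 and 3, above the 6.72 of the highest iPSC array. The part of the mesoderm markers in the Has2 and Vcan differences was not tested.

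**Figure D3:**
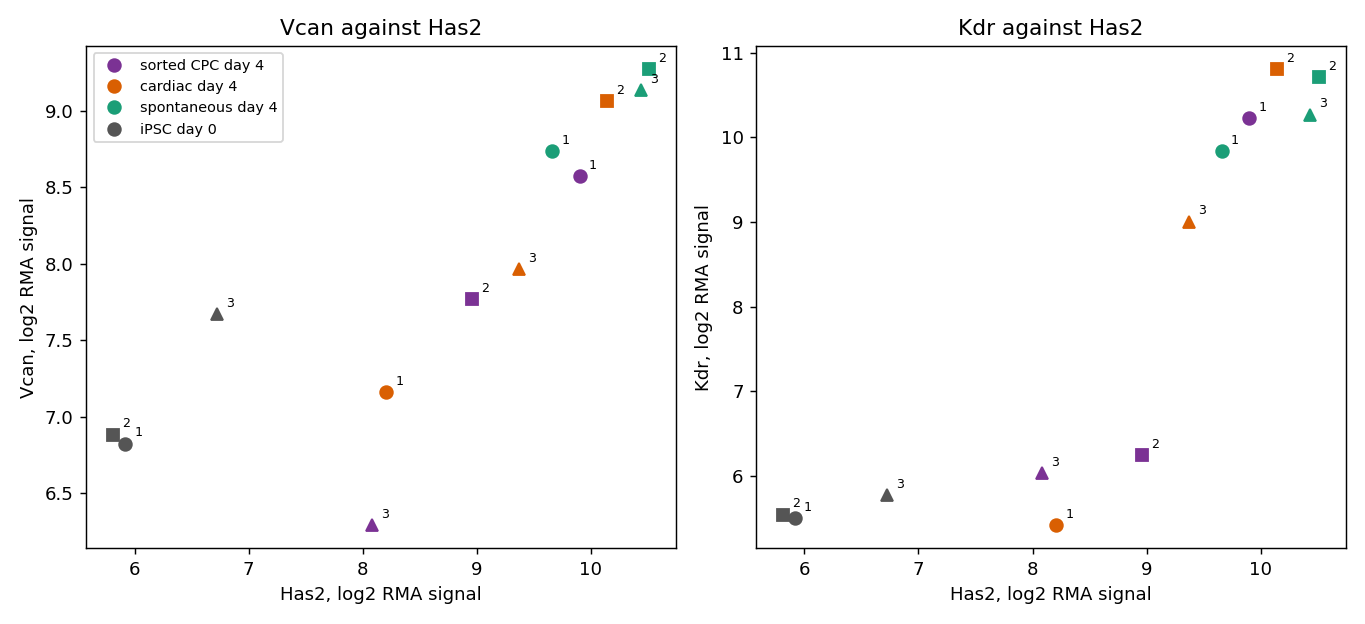
Vcan (left) and Kdr (right) against Has2, log2 RMA signal, 1 point per array; colours are the sorted CPC, cardiac, spontaneous and iPSC groups and numbers the replicates. Sorted replicate 3 and cardiac replicate 1 are low in both panels among day 4 arrays, yet their Has2 signals of 8.08 and 8.21 exceed the iPSC range of 5.81 to 6.72.

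Fibroblasts also express Has2, Vcan and Cd44, so markers of fibroblasts and feeder cells were read on the same arrays, and their sums were lower at day 4. All 8 markers were measured, and 1 fell in sorted libraries, 2 in cardiac cultures and 2 in spontaneous cells against iPSCs. Their summed linear signal was 692 to 867 in sorted libraries, 693 to 793 in cardiac cultures and 788 to 1000 in spontaneous cells, against 1011 to 1627 in iPSCs. Decorin (Dcn), a fibroblast proteoglycan, measured 5.60 to 5.84 in sorted libraries, 5.78 to 6.33 in cardiac cultures and 5.66 to 5.96 in spontaneous cells, near or below the array medians, against 6.95 to 8.39 in iPSCs. Not every marker was lower: of the 8 differences from iPSCs, 1 was positive in sorted libraries, 1 in cardiac cultures and 2 in spontaneous cells. Pdgfrb, the gene of a mesenchymal growth factor receptor, was 1 of the 2 in spontaneous cells. It measured 7.42, 6.44 and 6.23 in sorted libraries, 6.61, 7.36 and 6.75 in cardiac cultures and 7.10, 7.81 and 7.58 in spontaneous cells, against 7.37, 6.95 and 6.53 in iPSCs. Pdgfrb differed from iPSCs by -0.25, -0.04 and 0.55 in these groups (adjusted p = 0.325 in spontaneous cells), and in each day 4 group it was highest on the array highest in Has2. Within day 4 the summed fibroblast signal was highest in spontaneous replicates 2 and 3 (1000 and 899) and sorted replicate 1 (867), 3 arrays with a high Has2 signal, while cardiac replicate 2, also high in Has2, had 708. The next highest sum, 820, belonged to sorted replicate 3, the day 4 array lowest in Has2. The part of fibroblast-like cells in the Has2 and Vcan levels was not tested. In iPSCs, replicate 2 was the lowest array both in the mean of the fibroblast list (6.49, against 7.04 and 6.83 in replicates 1 and 3) and in Cd44, and the part of such cells in the Cd44 level was not tested.

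Other markers are given for the same samples. Of 6 endoderm markers 0 rose in sorted libraries, 4 in cardiac cultures and 1 in spontaneous cells against iPSCs, with summed signals of 714 to 1749, 1787 to 4573 and 743 to 1389, against 501 to 574. Of 6 endothelial and blood markers 0 rose and 1 fell in each day 4 group, with sums of 398 to 492 in sorted libraries, 537 to 671 in cardiac cultures and 429 to 552 in spontaneous cells, against 690 to 831 in iPSCs. Of 6 cardiac and smooth muscle markers 0 were called (1 in each group at an unadjusted p under 0.05), with sums of 688 to 3181, 557 to 742 and 720 to 1185 in sorted, cardiac and spontaneous samples, against 608 to 753 in iPSCs. The mean log2 signal of this list was 6.73, 6.67 and 7.92 in sorted replicates 1, 2 and 3, against 6.55 to 6.87 in iPSCs. Of 4 neural markers 1 rose in each group and 1 fell in spontaneous cells, with sums of 520 to 844, 447 to 561 and 448 to 505, against 471 to 548. The neural mean was 6.59, 6.67 and 7.08 in sorted replicates 1, 2 and 3, against 6.56 to 6.82 in iPSCs. The part of all these markers in the Has2 and Vcan values was not tested.

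The genes whose signal was most like that of Has2 were named by Pearson's r. Over all 12 arrays they were Herc3 (0.982), Gmfb (0.979), Slc25a10 (0.976), Galnt7 (0.976), St6gal1 (0.975) and Selenoi (0.975). Over the 9 day 4 arrays they were Ap1m1 (0.992), E2f6 (0.990), Dpysl2 (0.984), Rcc1 (0.981), Cbx5 (0.981) and Sgcb (0.980), so no gene was in both sets. The 12 arrays fall into a day 0 and a day 4 cluster in Has2, and the 9 arrays share their culture groups, so r is a description of order and carries no p. Among the members, r with Has2 over day 4 arrays was 0.69 for Hyal2, 0.681 for Ugdh, 0.665 for Has3, 0.615 for Hapln1, 0.556 for Cd44, -0.304 for Hmmr and -0.323 for Has1. Without sorted replicate 3 and cardiac replicate 1 these were 0.377, 0.899, -0.0769, 0.557, 0.849, 0.153 and -0.29, so the values for Hyal2, Has3 and Hmmr rest on those 2 arrays. The correlation of deviations from the group means over 12 arrays was 0.623 for Hyal2, 0.604 for Ugdh, 0.811 for Has3, 0.605 for Hapln1, 0.346 for Cd44, -0.517 for Hmmr and -0.128 for Has1. Over the signals of all 12 arrays r was 0.863 for Hyal2, 0.518 for Ugdh, 0.681 for Has3 and 0.595 for Hapln1. It was -0.074 for Cd44, -0.875 for Hmmr and -0.361 for Has1.

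In the 5 lists of other hyaluronan and versican genes 1 gene was called against iPSCs by limma. Enzymes that make UDP-sugars supply the synthases, and 0 of 8 were called in any day 4 group (2, 2 and 4 at an unadjusted p under 0.05), with medians of -0.14, -0.12 and 0.09 in sorted, cardiac and spontaneous samples. Gfpt2, which commits fructose 6-phosphate to the hexosamine pathway, was lowest in sorted libraries, at 8.31 against 9.39 in iPSCs (-1.09, adjusted p = 0.0784), and the difference was -0.68 without sorted replicate 3. Gnpnat1, a later enzyme of that pathway and the brightest of the list, was 0.44 below iPSCs in spontaneous cells (adjusted p = 0.0279, under the minimum difference, and 0.133 without spontaneous replicate 2). Pgm3, which acts next, differed by -0.52 in sorted libraries (adjusted p = 0.0601) and by -0.40 in spontaneous cells (adjusted p = 0.104).

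Chondroitin chains decorate versican, and of 22 genes for their synthesis 1 rose and 0 fell in each day 4 group, with medians of -0.01, 0.15 and 0.16 in sorted, cardiac and spontaneous samples. The risen gene was Chst15, which adds a second sulphate to chondroitin sulphate. Chst15 measured 7.51, 8.25 and 8.96 in sorted libraries, 8.22, 8.04 and 8.21 in cardiac cultures and 8.24, 8.05 and 8.12 in spontaneous cells, against 6.60, 6.46 and 7.13 in iPSCs. No day 4 array overlapped with iPSCs, and within the sorted group Chst15 was highest in replicate 3, where Has2 and Vcan were lowest. The differences were 1.51 in sorted libraries (2.85-fold, adjusted p = 0.00855), 1.43 in cardiac cultures (2.69-fold, adjusted p = 0.0115) and 1.40 in spontaneous cells (2.65-fold, adjusted p = 0.00931). The cardiac call was lost without iPSC replicate 1 or 2 (adjusted p = 0.051 and 0.0579), and the sorted call without the 3 arrays low in Kdr (0.78, adjusted p = 0.0549). Chst7, another chondroitin sulphotransferase gene, differed by 1.02, 0.80 and 1.38 (adjusted p = 0.242, 0.316 and 0.0786), and Dse, an epimerase that turns chondroitin into dermatan sulphate, by -0.41, -0.51 and -0.41 (adjusted p = 0.351, 0.201 and 0.292). The Chst7 difference was 0.44 without sorted replicate 1 and 2.20 in that array alone, and in cardiac cultures 1.27 without replicate 1 and 0.40 without replicate 2. The Dse difference in sorted libraries was -0.15 without replicate 1 and -0.70 without replicate 3.

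Of 18 other genes of hyaluronan binding and link proteins 0 were called (2, 3 and 3 at an unadjusted p under 0.05), with medians of -0.04, -0.19 and -0.08 in sorted, cardiac and spontaneous samples. Among them Tnfaip6, whose product moves heavy chains onto hyaluronan, was dim and differed by -0.41, -0.54 and -0.41 (adjusted p = 0.16, 0.0531 and 0.113). Hapln2, a link protein gene, differed by -0.55 in cardiac cultures (adjusted p = 0.0345, under the minimum difference, and 0.12 without iPSC replicate 1). Of 8 genes of versican proteases and their cofactor fibulin 1, 0 were called (2, 5 and 0 at an unadjusted p under 0.05), with medians of 0.09, -0.01 and 0.12. Adamts9, a versican-cleaving protease, measured 9.85, 9.98 and 7.71 in sorted libraries, 9.66, 9.52 and 9.68 in cardiac cultures and 9.61, 8.71 and 8.82 in spontaneous cells, against 7.66, 7.65 and 8.80 in iPSCs. All cardiac arrays exceeded the iPSC arrays, with a difference of 1.58 (adjusted p = 0.0799), while the sorted and spontaneous arrays overlapped with them (1.14 and 1.01, adjusted p = 0.229 and 0.241). The sorted difference was 0.74 without replicate 2 and 1.88 without replicate 3. Without sorted replicate 3 alone Adamts9 was called in each of these comparisons. Chst7 was called in spontaneous cells without cardiac replicate 1 or without sorted replicate 1, and the protease gene Adamts15 in cardiac cultures without cardiac replicate 1. Without all 3 arrays low in Kdr, 4 and 3 pathway genes were called in cardiac and spontaneous samples, among Adamts9, Adamts15, Chst7 and Chst15. With every array kept Chst15 alone was called in each. Calls over all 19938 genes also rose then, to 806 and 834, from 439 and 711 with every array kept. Whether the gain was particular to the pathway genes was not tested. In the 1 sorted array left, Adamts9 differed from iPSCs by 1.82 and Chst7 by 2.20. Of 11 genes of hyaluronan breakdown and uptake 0 were called (0, 2 and 1 at an unadjusted p under 0.05), with medians of 0.07, -0.04 and -0.08. Cemip, needed for hyaluronan breakdown in human skin fibroblasts, was 0.96 higher in cardiac cultures than in iPSCs without overlap (adjusted p = 0.0411, just under the minimum difference, and 0.129 without iPSC replicate 2), 0.45 higher in sorted libraries (adjusted p = 0.367) and 0.24 higher in spontaneous cells (adjusted p = 0.61).

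**Figure D4:**
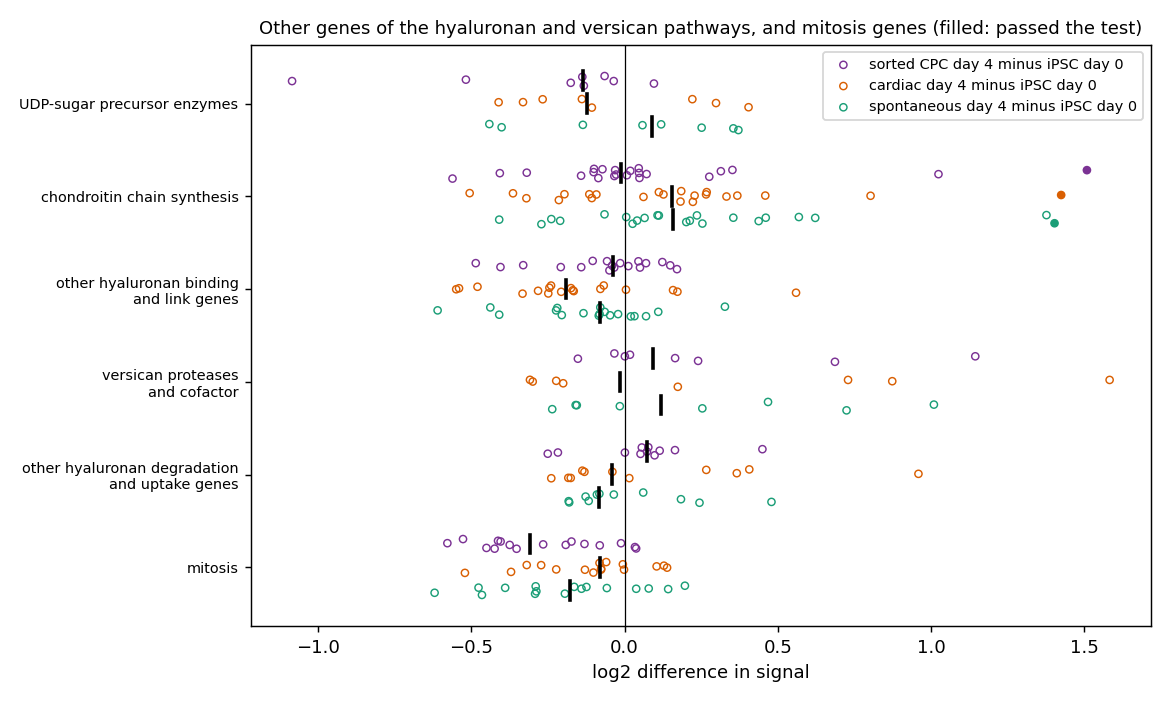
Log2 difference from iPSCs at day 0 for the genes of 5 hyaluronan and versican pathway lists and of a mitosis list, 1 circle per gene in the sorted CPC, cardiac and spontaneous groups at day 4; black bars are medians, filled circles passed the test and vertical scatter within a row has no meaning. The filled circles are Chst15 in all 3 groups, and the medians lie between -0.31 and 0.16.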

How the data were processed

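Total RNA was labelled as biotinylated cDNA and hybridised to 1-colour arrays, per the labels' protocols. The deposited table holds 35557 probe sets on 12 arrays as log2 signals. Per the submitters' processing notes, the authors used RMA and Affymetrix Expression Console 1.3.1 to make these deposited log2 values. RMA equalises the arrays' distributions, so a shift of all genes would not show. The log base was taken from RMA output and the range of values (1.87 to 13.87). No source used here names the genome build behind the probe sets. Arrays have no read depth; their number limits precision.

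Platform annotation gave 21789 probe sets 1 symbol and 1621 several; Entrez numbers of 21698 matched the RefSeq table of GRCm38.p6, used for names and neighbours. The 4 group means were fitted for 19938 genes on 12 arrays with limma 3.58.1 in R 4.3.3, using an intensity trend (8 residual and 5.01 prior degrees of freedom), without a filter on low values. Tests were two-sided with Benjamini-Hochberg adjustment over all genes. The model was tested on simulated data with 200 changed genes per comparison.

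The members, pathway and marker lists were chosen with earlier results of these data known, so their patterns are not independent support. Named genes were the members, the 6 most like Has2 over 12 and over 9 arrays, and in each pathway list called genes, those with the largest differences and the brightest uncalled ones. The marker T and the mitosis gene Ccnb1 had no probe set of their own symbol. The alternatives tried were a block for replicate number, array weights, no intensity trend, leaving out dim genes, averaging probe sets of 1 gene, cyclic loess, median centring, only the arrays compared, no minimum difference and each array left out; leaving out 3 arrays low in Kdr was added after seeing the data, and its lone sorted array is assumed to vary like the other groups. Same-numbered arrays of different groups had correlations of their deviations from -0.38 to 0.31 over 18 pairs. Other pairs had -0.47 to 0.30. These values gave no sign of pairing by number but cannot exclude it, and the samples were treated as unpaired.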

Additional observations from a re-analysis of the deposited data

How the results depend on the processing

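Precision rests on 3 arrays a group, and dim signals (Has1, Has3, Hapln1) are not shown to exceed background. Called members numbered 1 in spontaneous, 0 in cardiac and 0 in sorted samples against iPSCs (Has2 not counted), and 0 in each comparison between day 4 groups. These 6 counts were the same with the replicate number as a block (1, 0, 0, 0, 0 and 0), which has no basis in the pairing check (5 of 12 arrays correlated best with one of their own number), and with no trend, array weights, the dim-gene filter, mean probe sets, both other scalings and only the arrays compared. Without a minimum difference the counts against iPSCs were 2, 1 and 1, since Hmmr was added. With 1 array of the comparison left out they ran from 0 to 1 in spontaneous, from 0 to 1 in cardiac and stayed 0 in sorted samples. Without the 3 arrays low in Kdr they were 1 in spontaneous and 2 in cardiac samples. These counts are out of 8 members. Calls over all 19938 genes also rose then, to 834 and 806, from 711 and 439 with every array kept. Whether the gain in cardiac samples was particular to the members was not tested. Only 1 sorted array was left, so no sorted count is given. The other scalings moved the median of all genes by less than 0.1 in every comparison.

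Of 54 member differences 13 changed sign under an alternative, and none of the 13 was called with all 12 arrays; Vcan (sorted minus iPSC), which reversed with 1 array left out, was called without the 3 arrays low in Kdr (1.45). With array weights, Has1 (cardiac minus spontaneous) was 0.056, Has2 (sorted minus cardiac) 0.26, Has3 (sorted minus spontaneous) 0.14, Vcan (sorted minus cardiac) 0.11, Hapln1 (cardiac minus spontaneous) -0.35 and Ugdh (sorted minus iPSC) 0.0049. Median centring put Cd44 (sorted minus cardiac) at -0.042, and cyclic loess put Hmmr (sorted minus spontaneous) at 0.066. Without the 3 arrays low in Kdr, Has2 (sorted minus cardiac) was 0.14, Has3 (sorted minus spontaneous) 0.32, Hyal2 (cardiac minus spontaneous) 0.091, Cd44 (sorted minus cardiac) -0.42, Vcan (sorted minus cardiac) 0.060 and Ugdh (sorted minus iPSC) 0.16. With 1 array left out, the ranges that crossed 0 were -0.13 to 0.046 for Has1 (cardiac minus spontaneous), -0.78 to 0.19 for Has2 (sorted minus cardiac), -0.046 to 0.27 for Has3 (cardiac minus iPSC), -0.18 to 0.18 for Has3 (sorted minus spontaneous), -0.23 to 0.091 for Hyal2 (cardiac minus spontaneous) and -0.31 to 0.0079 for Hyal2 (sorted minus cardiac). They were -0.13 to 0.36 for Cd44 (spontaneous minus iPSC), -0.22 to 0.26 for Cd44 (sorted minus cardiac), -0.10 to 1.05 for Vcan (sorted minus iPSC), -1.04 to 0.11 for Vcan (sorted minus cardiac), -0.45 to 0.60 for Hapln1 (cardiac minus spontaneous), -0.087 to 0.020 for Hmmr (sorted minus spontaneous) and -0.45 to 0.064 for Ugdh (sorted minus iPSC). The causes were not tested.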
